A study of Homo sapiens with 9 samples.

Results

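The miRNA genes of the human HOX clusters were examined in small RNA sequencing of HCT116 colorectal carcinoma cells and of drug-resistant sublines derived from them. The members were taken by name as the listed strands of miR-10a and miR-10b, the main strands of both miR-196 paralogs and the main strand of miR-615, namely hsa-miR-10a-5p, hsa-miR-10a-3p, hsa-miR-10b-5p, hsa-miR-10b-3p, hsa-miR-196a-5p, hsa-miR-196b-5p and hsa-miR-615-3p. They were 7 of the 1198 miRNAs in the count table. Of these 7 members, 6 were among the 367 miRNAs that passed the filter on low counts, and hsa-miR-10b-3p did not.

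HCT116 is an established human line of colorectal epithelial carcinoma and served here as the parental control. HCT-Oxa-c was selected from it under oxaliplatin, a platinum compound that binds DNA, and HCT-FU-c under 5-fluorouracil, a pyrimidine analog that interferes with thymidylate synthesis, in both cases by unbroken exposure to a rising dose. Each line was represented by 3 libraries, labeled as biological replicates 1 to 3, which gave 9 libraries of total RNA. Each drug was represented by 1 subline, so an effect of the drug and a property of that subline cannot be told apart.

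HOX genes encode homeodomain transcription factors that set position along the body axis, and colon epithelium and its tumors keep expressing part of them. The miRNA genes lie between or inside the HOX genes and are transcribed in the same direction as their neighbors. A hairpin precursor gives a strand from each arm, named 5p and 3p, which are usually not loaded into Argonaute to the same extent. In Argonaute, the seed near the 5′ end of the strand pairs with target mRNAs. The miR-10 and miR-196 families are known to repress HOX mRNAs, miR-196 among them HOXB8, and miR-10b is known for its part in tumor cell invasion.

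The mature sequences are shown because the seed decides which of these miRNAs can share targets, and because close paralogs can share sequencing reads. They were taken from RefSeq (GRCh38.p14), which matched 1059 of the 1198 listed names and 6 of the 7 members, all but hsa-miR-10b-5p, and are printed 5′ to 3′ with bases 2 to 8, the seed, in capitals. The list ends with a relative of miR-10 from outside the HOX clusters.
hsa-miR-10a-5p: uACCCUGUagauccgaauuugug
hsa-miR-10a-3p: cAAAUUCGuaucuaggggaaua
hsa-miR-10b-3p: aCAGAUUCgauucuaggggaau
hsa-miR-196a-5p: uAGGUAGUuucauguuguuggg
hsa-miR-196b-5p: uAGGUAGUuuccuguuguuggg
hsa-miR-615-3p: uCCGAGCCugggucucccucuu
hsa-miR-100-5p: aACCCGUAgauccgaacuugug

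Among the matched names, hsa-miR-196a-5p and hsa-miR-196b-5p had the same seed, and no other listed miRNA carried it. These paralogs differed by 1 substitution, A12C, counted from 1 at the 5′ end with the base of hsa-miR-196a-5p first. The seeds of hsa-miR-10a-5p, hsa-miR-10a-3p, hsa-miR-10b-3p and hsa-miR-615-3p occurred in no other matched name, among which hsa-miR-10b-5p was not. The 3p strands of miR-10a and miR-10b shared a run of 11 bases toward their 3′ ends but had different seeds. hsa-miR-10a-5p also shared a run of 11 bases, from its base 7 to base 17, with hsa-miR-100-5p, in which the run lay 1 base closer to the 5′ end. How reads that match several miRNAs were assigned is not given in the sources used here, which did not include the supplementary methods of the study, so counts of near-identical paralogs are uncertain to that extent.

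The hairpins lay in all 4 HOX clusters (GENCODE 29, GRCh38). MIR10A (chr17:48579838-48579947, minus strand) was in the HOXB cluster, inside intron 1 of 6 HOXB3 transcripts and inside exon 1 of transcript HOXB4-201. MIR10B (chr2:176150303-176150412, plus strand) was in the HOXD cluster, inside intron 1 of HOXD3-203 and 809 bases from HOXD4. The mature hsa-miR-196a-5p is encoded at 2 loci, so its reads cannot be assigned to either. These were MIR196A1 (chr17:48632490-48632559, minus strand) in intron 1 of HOXB7-203 and MIR196A2 (chr12:53991738-53991847, plus strand) in intron 1 of HOXC6-203. MIR196B (chr7:27169480-27169563, minus strand) was in the HOXA cluster, in intron 1 of HOXA9-203 and HOXA9-204 and in exon 1 of HOXA9-205. MIR615 (chr12:54033950-54034045, plus strand) was in the HOXC cluster, in intron 1 of HOXC5-201 and of HOXC4-201. Every one of these 6 hairpins thus lay on the strand of a HOX transcript that spans it. MIR3185 and MIR7704 were the only other annotated hairpins between the first and the last HOX gene of a cluster. No strand of MIR3185 was listed, and hsa-miR-7704 had 3 counts in all 9 libraries together.

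**Figure D1:**
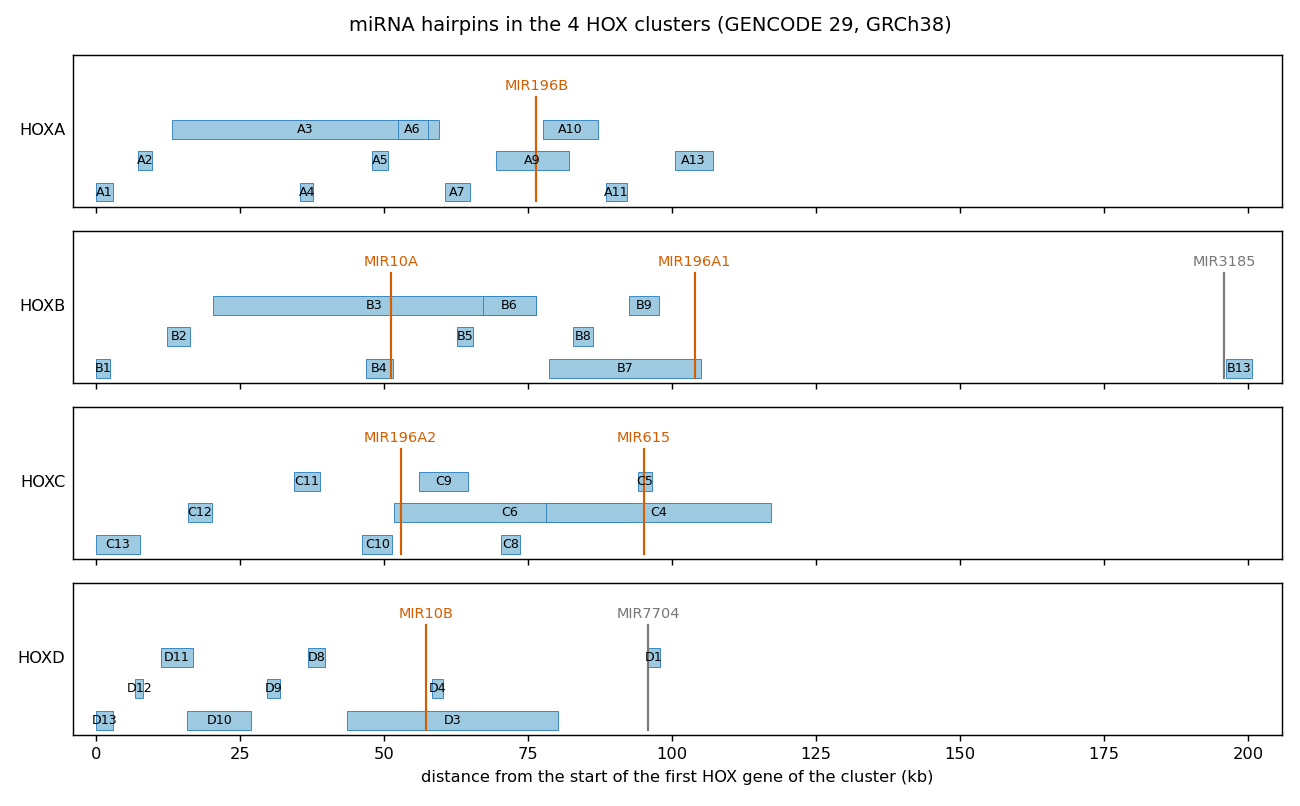
Positions of the miRNA hairpins in the 4 HOX clusters, with the distance in kilobases from the start of the first HOX gene of each cluster on the horizontal axis. Blue boxes are HOX genes stacked on arbitrary levels, orange lines are the 6 hairpins of the members and gray lines the other 2 annotated hairpins. The HOXB cluster, 200.7 kb long, holds MIR10A and MIR196A1, and the shorter HOXC cluster of 117.3 kb holds MIR196A2 and MIR615.

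The total counts in replicates 1, 2 and 3 were 1423526, 1414341 and 856383 in HCT116. They were 1950307, 2207538 and 1088268 in HCT-Oxa-c and 1230774, 1487737 and 919675 in HCT-FU-c. Replicate 3 was the smallest library of each line. A floor of 3 counts, the upper limit that a count of 0 allows for counting error alone, corresponded to between 1.34 and 4.01 counts per 1000000 counts of the library (CPM, with library sizes scaled by TMM factors) across the libraries. hsa-miR-21-5p, singled out after its values were seen, took 40.0% to 57.1% of each library. The 7 members together took 1.23%, 1.12% and 4.71% of the counts for HCT116, 0.985%, 1.04% and 4.72% for HCT-Oxa-c and 2.31%, 1.13% and 4.79% for HCT-FU-c, in the order of replicates 1 to 3. Their share was therefore highest in replicate 3 of every line.

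The replicate 3 libraries stood apart for most members. hsa-miR-10b-5p was 5.44-fold higher in replicate 3 than in replicates 1 and 2, on the mean log2 scale over the 3 lines, which placed it at position 6 of the 367 tested miRNAs. hsa-miR-10a-5p was 4.80-fold higher, at position 8. The main strands of miR-10a and miR-10b therefore shifted more than nearly all other miRNAs, and only 8 of 367 (2.18%) were more than 4-fold higher in replicate 3 of every line. The shift of hsa-miR-196b-5p was 2.83-fold (position 33) and that of hsa-miR-196a-5p 1.83-fold (position 75). hsa-miR-10a-3p had a mean shift of 0.48 on the log2 scale (position 114), which differed in sign between the lines, with 0.40 in HCT116, -0.072 in HCT-FU-c and 1.104 in HCT-Oxa-c. hsa-miR-615-3p moved the other way, by -1.19 on the log2 scale, at position 48 from the bottom. The strand hsa-miR-196a-1-3p was also lower in replicate 3, by -1.79, but on few counts. It had 0, 2 and 1 counts in replicate 3 of HCT116, HCT-FU-c and HCT-Oxa-c, below the floor of 3, and 4 to 17 elsewhere. The arms of miR-10a thus differed in how far they moved between replicates of the same line. Hairpins of 1 cluster could not be compared as clearly, since hsa-miR-196a-5p comes from 2 loci.

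**Figure D2:**
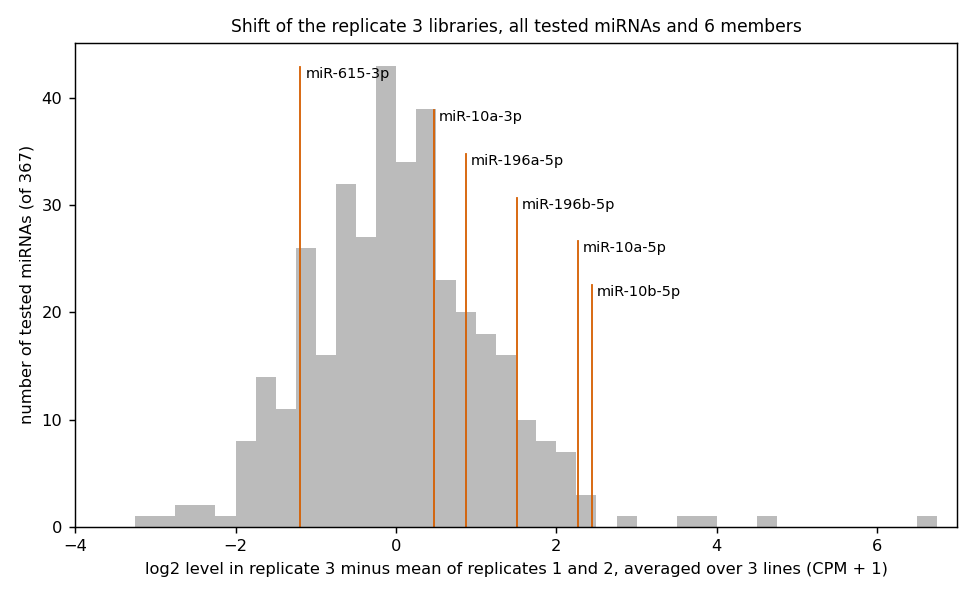
Shift of the replicate 3 libraries for all 367 tested miRNAs (gray histogram) and for 6 members (orange lines, their height has no meaning). The horizontal axis is the log2 CPM (with 1 added) in replicate 3 minus the mean of replicates 1 and 2, averaged over the 3 lines. hsa-miR-10b-5p (2.44) and hsa-miR-10a-5p (2.26) lie in the upper tail and hsa-miR-615-3p (-1.19) on the lower side.

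Markers fixed for the cell type were measured in the same libraries. All 4 epithelial and colonic miRNAs of the marker list were listed, with a summed level of 9568 to 12653 CPM per library. Most of it was hsa-miR-200c-3p, with line means of 10035 to 10222 CPM. The line means were 598 to 742 CPM for hsa-miR-141-3p, 83.5 to 143 CPM for hsa-miR-194-5p and 41.0 to 62.6 CPM for hsa-miR-192-5p. The sum thus mainly reflected hsa-miR-200c-3p. This sum was lowest in replicate 3 of every line. There hsa-miR-141-3p (mean shift -1.24 on the log2 scale, position 42 from the bottom of the 367), hsa-miR-194-5p (-0.93) and hsa-miR-200c-3p (-0.19) were lower in each line. hsa-miR-192-5p had a mean shift of -0.15 but was not lower in HCT116 (0.059). All 8 markers of blood, stroma, endothelium and liver were listed as well, with a sum of 997 to 1419 CPM per library. The most abundant of them was hsa-miR-126-3p, except in replicate 3 of HCT116, where hsa-miR-143-3p (561 CPM) was just above it (560 CPM). The line means of hsa-miR-126-3p (638 to 819 CPM) exceeded those of hsa-miR-192-5p and hsa-miR-194-5p in every line. They exceeded that of hsa-miR-141-3p in HCT116 and HCT-FU-c but not in HCT-Oxa-c. hsa-miR-451a, typical of red blood cells, had 86, 70 and 246 counts in replicate 3 of HCT116, HCT-FU-c and HCT-Oxa-c, against 0 to 2 counts in every other library. The liver miRNA hsa-miR-122-5p had 45, 20 and 45 counts in these replicate 3 libraries and 0 to 7 elsewhere. hsa-miR-142-3p had 0 counts in all 3 HCT-Oxa-c libraries and at most 7 in the others. In contrast, hsa-miR-223-3p had 13 counts in replicate 3 of HCT-Oxa-c and 0 to 4 in every other library. The counts of hsa-miR-142-5p were 0 to 10 across the libraries. hsa-miR-451a and hsa-miR-122-5p took positions 1 and 2 in the shift toward replicate 3. Of the other markers of this list among the 367 tested miRNAs, hsa-miR-143-3p was 3.66-fold higher in replicate 3 (position 20), whereas hsa-miR-126-3p (-0.75 on the log2 scale) and hsa-miR-145-5p (-0.64) were lower in replicate 3 of every line. With the replicate number as a block in the test described below, hsa-miR-143-3p was lower in both sublines than in HCT116, with a log2 fold change of -0.97 for HCT-Oxa-c (edgeR adjusted p = 0.00172) and of -0.96 for HCT-FU-c (edgeR adjusted p = 0.0113). Between the sublines, hsa-miR-451a was higher in HCT-Oxa-c by 1.63 on the log2 scale (edgeR with the block, adjusted p = 0.00903) and the epithelial hsa-miR-194-5p lower by -0.76 (edgeR with the block, adjusted p = 0.0133). The difference of hsa-miR-451a rested on replicate 3 (246 against 70 counts), since both sublines had 0 to 2 counts in replicates 1 and 2. No other marker was called with the block, and none without it. The epithelial hsa-miR-192-5p had the opposite sign to hsa-miR-194-5p. It was higher in HCT-Oxa-c by 0.61 against HCT-FU-c and by 0.59 against HCT116 on the log2 scale. Neither difference passed (edgeR with the block, adjusted p = 0.0720 and 0.124), although its HCT-Oxa-c libraries lay above all libraries of the other lines. Ranges did not overlap for 22.9% and 16.1% of all 367 miRNAs in these comparisons. The part of these markers in the shift of the members and in their fold changes was not tested.

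The levels of the members kept 1 order of means in all 3 lines. From the highest to the lowest it was hsa-miR-10a-5p, hsa-miR-10b-5p, hsa-miR-196b-5p, hsa-miR-196a-5p, hsa-miR-615-3p, hsa-miR-10a-3p and hsa-miR-10b-3p. This order compares read counts, and adapters do not ligate to every miRNA with equal efficiency. Some neighbors in it did not differ beyond the spread between libraries. The ranges of hsa-miR-10b-5p and hsa-miR-196b-5p overlapped in every line, those of hsa-miR-196a-5p and hsa-miR-615-3p in HCT116, and those of hsa-miR-615-3p and hsa-miR-10a-3p in HCT-FU-c. In HCT-Oxa-c the ranges of hsa-miR-10a-5p and hsa-miR-10b-5p also overlapped, although hsa-miR-10a-5p was the higher of them in 3 of 3 libraries. Within libraries, hsa-miR-10b-5p exceeded hsa-miR-196b-5p in 3 of 3 libraries of HCT-Oxa-c and in 2 of 3 of each other line, and the remaining overlapping neighbors kept their order in 2 of 3 libraries.

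hsa-miR-10a-5p, the main product of the HOXB hairpin, was the most abundant member. It was at 9908, 9098 and 46189 CPM in replicates 1, 2 and 3 of HCT116. In HCT-FU-c it was at 18360, 6911 and 45197 CPM, and in HCT-Oxa-c at 7176, 7303 and 41146 CPM. Replicate 3 was high in each line, and the ranges of the 3 lines overlapped. The means were 21732 ± 21184 CPM (SD, n = 3) for HCT116, 23489 ± 19652 for HCT-FU-c and 18542 ± 19576 for HCT-Oxa-c, so the SD nearly equaled or exceeded the mean.

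hsa-miR-10b-5p, the main product of the HOXD hairpin, had the largest fold change of the 6 tested members in HCT-Oxa-c against either other line under TMM with all 9 libraries, but not with every scaling or with each library left out. Its level was 779, 802 and 4563 CPM in replicates 1, 2 and 3 of HCT116. It was 1229, 1379 and 7794 CPM in HCT-Oxa-c and 1479, 572 and 4290 CPM in HCT-FU-c. HCT-Oxa-c exceeded HCT116 at every replicate number, but its replicates 1 and 2 lay far below replicate 3 of either other line, so the ranges overlapped. The means were 2048 ± 2178 CPM (SD, n = 3) for HCT116, 2114 ± 1938 for HCT-FU-c and 3467 ± 3748 for HCT-Oxa-c.

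The other strands of the miR-10 hairpins were rare. hsa-miR-10a-3p was at 50.9, 62.9 and 74.8 CPM for HCT116, at 40.4, 51.9 and 99.6 CPM for HCT-Oxa-c and at 79.4, 86.2 and 78.7 CPM for HCT-FU-c. All 3 HCT-FU-c libraries were above all HCT116 libraries, whereas HCT-Oxa-c held both the lowest and the highest value. hsa-miR-10b-3p had 2, 0 and 3 counts for HCT116, 3, 20 and 11 for HCT-Oxa-c and 3, 6 and 3 for HCT-FU-c. Most of these counts were at or near the floor of 3, and hsa-miR-10b-3p was left out of the fit of 367 miRNAs. In the fits with no filter or with fewer libraries that did include it, it was not called in any comparison.

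The miR-196 paralogs, which share their seed, are encoded in 3 clusters. hsa-miR-196b-5p from the HOXA cluster was at 744, 840 and 2443 CPM for HCT116, at 1107, 1042 and 3050 CPM for HCT-Oxa-c and at 1047, 765 and 2329 CPM for HCT-FU-c. hsa-miR-196a-5p, encoded at a HOXB and a HOXC locus, was at 196, 327 and 557 CPM for HCT116, at 345, 298 and 500.0 CPM for HCT-Oxa-c and at 349, 288 and 566 CPM for HCT-FU-c. Both were highest in replicate 3 of each line, and the lines overlapped for both. The mean of hsa-miR-196b-5p was 3.73 times that of hsa-miR-196a-5p for HCT116, 4.55 times for HCT-Oxa-c and 3.44 times for HCT-FU-c, with no overlap of their ranges in any line. Of their other strands, hsa-miR-196a-1-3p had at most 17 counts in a library and hsa-miR-196b-3p had 4 counts over all libraries.

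hsa-miR-615-3p, from a hairpin inside introns of HOXC5 and HOXC4 transcripts, was the member that was lowest in replicate 3. It was at 200.4, 173 and 78.9 CPM for HCT116, at 179, 189 and 107 CPM for HCT-Oxa-c and at 150.5, 202 and 58.4 CPM for HCT-FU-c. The lines overlapped. The other strand, hsa-miR-615-5p, had 10 counts over all libraries, so nearly every read of this hairpin came from its 3p arm.

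**Figure D3:**
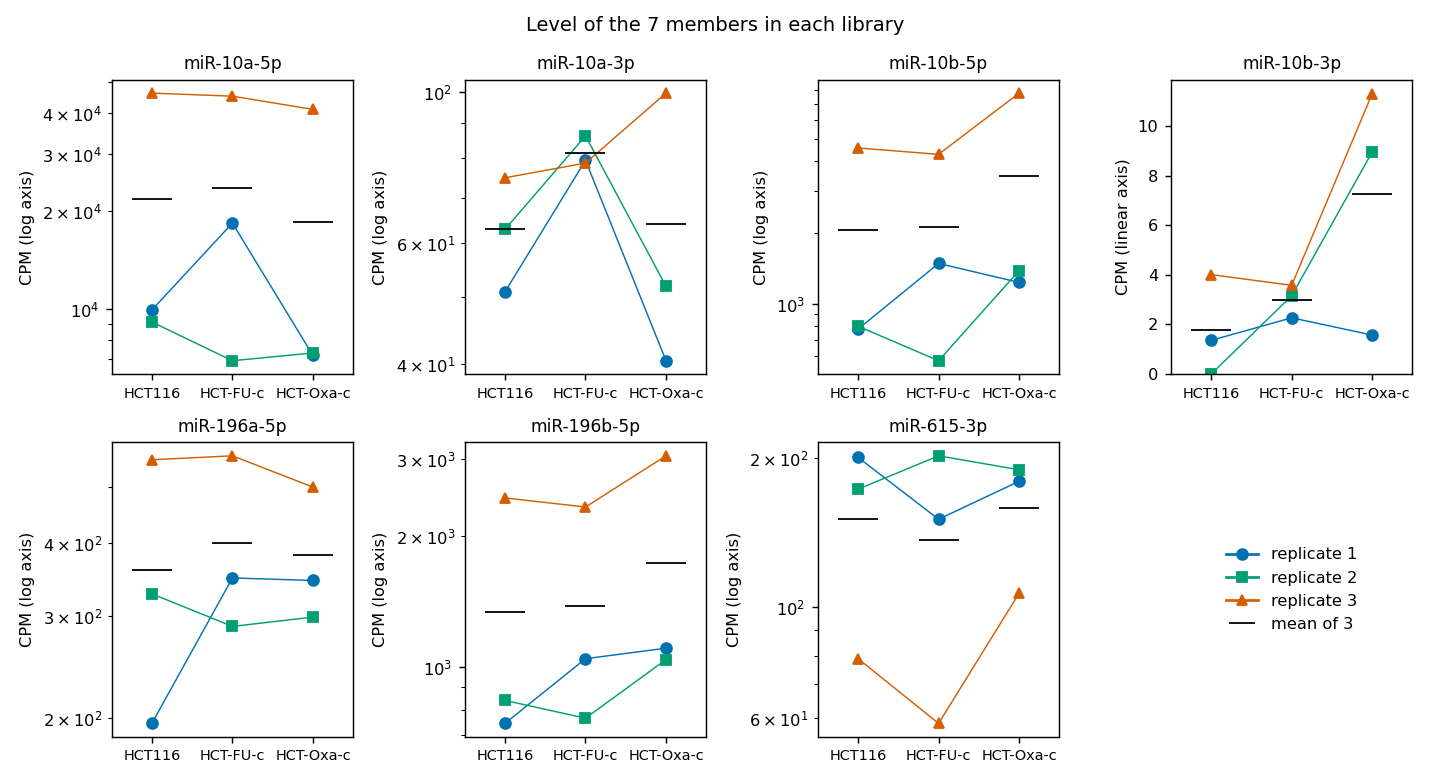
Level of each of the 7 members in the 9 libraries. The vertical axis is CPM, logarithmic except for hsa-miR-10b-3p, the lines are on the horizontal axis, colors and shapes mark the replicate number, thin lines join libraries with the same number, and black bars are means of 3 libraries. Replicate 3 is highest in each line for hsa-miR-10a-5p, hsa-miR-10b-5p, hsa-miR-196a-5p and hsa-miR-196b-5p, and lowest for hsa-miR-615-3p.

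The comparison of HCT-Oxa-c with HCT116 addressed which miRNAs differed after selection under oxaliplatin. Without regard to the replicate number, none of the members differed beyond the spread between libraries. The edgeR quasi-likelihood test called 0 of 6 tested members (0 at an unadjusted p under 0.05, 0 by DESeq2), where it called 9 of all 367 miRNAs (2.45%). Over the members the median of the log2 fold changes was 0.08, and over all tested miRNAs it was -0.01. The fold change of hsa-miR-10b-5p was 0.76 on the log2 scale, with an SE of 1.01 and a 95% interval from -1.51 to 3.03 (edgeR adjusted p = 0.978). This interval spans changes in both directions. In bulk RNA, a different number of cells carrying a miRNA and a different level per cell cannot be told apart.

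With the replicate number as a block in the same test, hsa-miR-10b-5p was higher in HCT-Oxa-c than in HCT116 by 0.75 on the log2 scale, or 1.68-fold (SE 0.21, 95% interval 0.32 to 1.17, edgeR adjusted p = 0.0175). Within replicate numbers 1, 2 and 3 the log2 difference was 0.66, 0.78 and 0.77, so it was positive in 3 of 3 pairs and of like size in each. The block called 54 of all 367 miRNAs (14.7%), 35 of them higher (9.54%), so that 1 of 6 members is a share near that of all miRNAs. This call depended on single libraries. It was lost without replicate 1 of HCT116 (adjusted p = 0.0586), replicate 3 of HCT116 (0.0923), or replicate 1 (0.0579), 2 (0.174) or 3 (0.0851) of HCT-Oxa-c, all from edgeR with the block. The log2 difference itself stayed between 0.58 and 1.00 over all 9 fits that left out 1 library. With replicates 1 and 2 only, it was 0.76 with the block (edgeR adjusted p = 0.0469) and 0.74 without it, which did not pass (edgeR adjusted p = 0.156). The correlations between libraries set replicate 3 apart and do not show that numbers 1 and 2 pair libraries. With a block for replicate 3 alone, the difference was 0.74 and passed (edgeR adjusted p = 0.0357).

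The other members did not pass with the block under the TMM scaling with all 9 libraries. hsa-miR-196b-5p came closest, at 0.39 on the log2 scale in HCT-Oxa-c against HCT116 (edgeR with the block, adjusted p = 0.0834). It was higher in 3 of 3 pairs of replicate numbers, by 0.57, 0.31 and 0.32. It passed when HCT-FU-c replicate 1 or 3 was left out, and when the most abundant miRNA was kept out of the scaling (0.45, edgeR with the block, adjusted p = 0.0458). hsa-miR-10a-5p had the opposite sign, with -0.30 (edgeR with the block, adjusted p = 0.384), and was lower in 3 of 3 pairs, by -0.47, -0.32 and -0.17. The paralogs of miR-10 thus had fold changes of opposite sign in HCT-Oxa-c, of which that of hsa-miR-10b-5p passed the test. Ranges of values did not overlap between HCT-Oxa-c and HCT116 for 0 of the 6 members and for 59 of 367 miRNAs (16.1%).

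HCT-FU-c was set against HCT116 to ask about selection under 5-fluorouracil. No member was called. edgeR called 0 of 6 members (0 at an unadjusted p under 0.05, 0 by DESeq2) and 0 of 367 miRNAs in all (0%, with 15 at an unadjusted p under 0.05 and 4 called by DESeq2). With the block it called 0 members and 20 of 367 miRNAs (5.45%). The median log2 fold change was 0.08 over the members and 0.02 over all tested miRNAs.

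The HCT-FU-c libraries lay wholly above those of HCT116 for hsa-miR-10a-3p. The log2 fold change was 0.38 without the block (edgeR adjusted p = 0.997) and 0.42 with it (edgeR adjusted p = 0.431), so the difference did not pass the test. It was 1 of 6 members with ranges that did not overlap, against 32 of 367 miRNAs (8.72%), or 16 of 367 in the higher direction (4.36%). hsa-miR-10b-5p differed by 0.05 on the log2 scale (edgeR adjusted p = 0.997). Its differences within replicate numbers 1, 2 and 3 were 0.92, -0.49 and -0.09, which had no common direction. For hsa-miR-10a-5p they were 0.89, -0.40 and -0.03, nearly the same series.

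HCT-Oxa-c was also compared with HCT-FU-c, which asks whether the sublines differed from each other. edgeR called 0 of 6 members (0 at an unadjusted p under 0.05, 0 by DESeq2) and 16 of 367 miRNAs (4.36%). The median log2 fold change was 0.07 over the members and -0.07 over all tested miRNAs. With the block, hsa-miR-10b-5p was higher in HCT-Oxa-c by 0.59 on the log2 scale (SE 0.21, 95% interval 0.15 to 1.02, edgeR adjusted p = 0.0422). The differences within replicate numbers were -0.27, 1.27 and 0.86, so only 2 of 3 pairs had this direction. The block called 97 of 367 miRNAs (26.4%), 54 of them higher (14.7%), and 1 of 6 members is near these shares.

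This call was less stable than the one against HCT116. It was lost without HCT116 replicate 3 (adjusted p = 0.0884), HCT-FU-c replicate 2 (0.360) or 3 (0.0557), or HCT-Oxa-c replicate 1 (0.0624), 2 (0.234) or 3 (0.136), all from edgeR with the block. The log2 difference was lowest without HCT-FU-c replicate 2 (0.26) and highest when replicate 1 of that line was left out (1.08). It was also lost when only replicate 3 was set apart in the block (0.52, edgeR adjusted p = 0.109), and when libraries were scaled to total counts (0.43, edgeR with the block, adjusted p = 0.117), and hsa-miR-10a-5p was then called lower in HCT-Oxa-c (-0.65, edgeR with the block, adjusted p = 0.0134). Under TMM hsa-miR-10a-5p had -0.50 with the block and did not pass (edgeR adjusted p = 0.0822). hsa-miR-196b-5p was higher in HCT-Oxa-c in 3 of 3 pairs (0.080, 0.45 and 0.39) and did not pass either (0.30, edgeR with the block, adjusted p = 0.151). That count depended on the numbering, since numbers 1 and 2 are not shown to pair libraries. HCT-Oxa-c replicate 2 (1042 CPM) lay just below HCT-FU-c replicate 1 (1047 CPM). Relative to TMM, total counts moved the median of all tested miRNAs by -0.18 in this comparison and by 0.17 in HCT-FU-c against HCT116, both with the block. None of the 6 members had ranges that did not overlap between the sublines, against 84 of 367 miRNAs (22.9%).

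**Figure D4:**
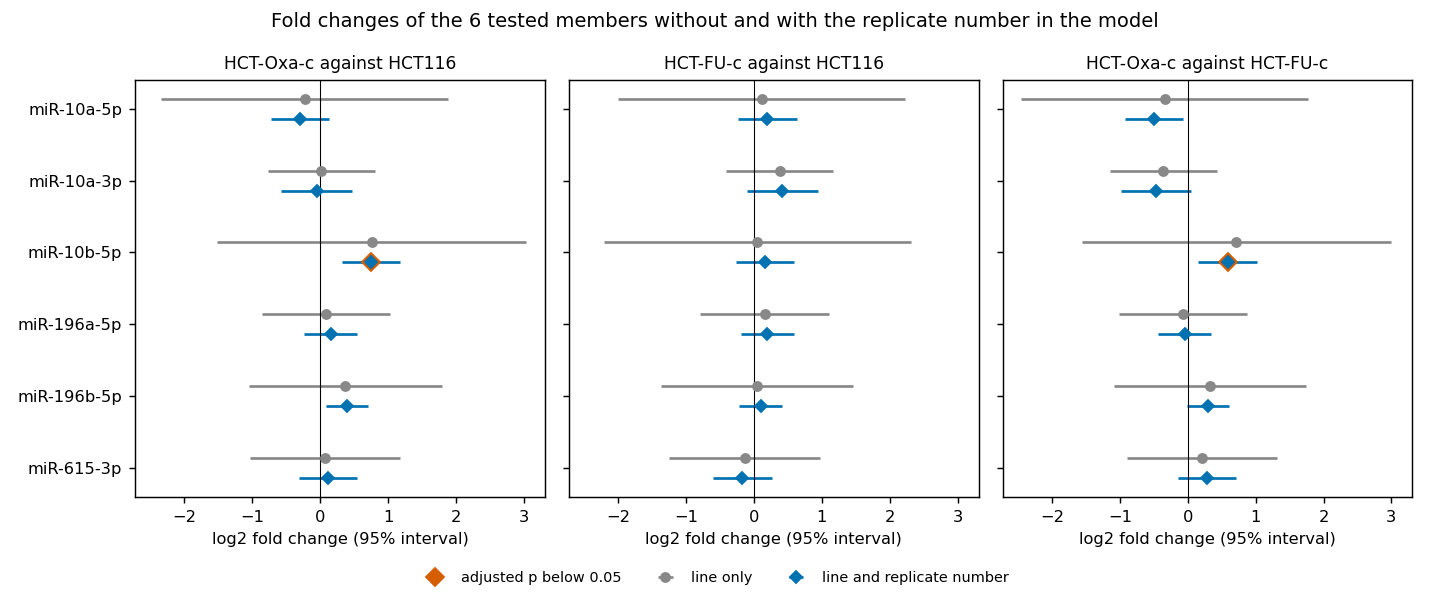
Log2 fold changes of the 6 tested members in the 3 comparisons, with 95% intervals, from the fit with the line only (gray circles) and the fit with line and replicate number (blue diamonds). Orange outlines mark an adjusted p below 0.05. The interval of hsa-miR-10b-5p in HCT-Oxa-c against HCT116 narrows from -1.51 to 3.03 without the block to 0.32 to 1.17 with it.

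Ratios of counts within a library do not depend on the scaling of libraries. The ratio of hsa-miR-10a-5p to hsa-miR-10b-5p was 12.7, 11.3 and 10.1 in HCT116 replicates 1, 2 and 3. It was 12.4, 12.1 and 10.5 in the HCT-FU-c replicates, whereas the HCT-Oxa-c replicates had 5.84, 5.30 and 5.28. All 3 HCT-Oxa-c libraries thus lay below all 6 libraries of the other lines. Replicate 3 had the lowest ratio in each line, a smaller difference than the several-fold shift of both miRNAs in it. The mean ratio was 11.4 ± 1.30 (SD, n = 3) for HCT116, 11.7 ± 1.00 for HCT-FU-c and 5.47 ± 0.318 for HCT-Oxa-c.

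On the log2 scale, with 0.5 added to each count, this ratio was lower in HCT-Oxa-c than in HCT116 by a difference of -1.05, which is 2.08-fold. Within replicate numbers 1, 2 and 3 the difference was -1.12, -1.10 and -0.94. Against HCT-FU-c it was -1.09, and -1.09, -1.19 and -0.997 within the numbers. The direction was the same in 3 of 3 pairs of both comparisons, and leaving out any library of the lines compared gave -1.14 to -0.97 and -1.16 to -1.04. An exact two-sided permutation test of 3 against 3 libraries gave p = 0.1 for both, the smallest p this design allows, and 0.6 after adjustment over the 12 ratio tests. The test therefore could not pass a threshold of 0.05. Between HCT-FU-c and HCT116 the difference was 0.04 (exact permutation p = 0.8).

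Ratios that separate the lines were common among all miRNAs. Among all 67161 pairs of tested miRNAs, the count ratio did not overlap between lines in 19.0% for HCT-Oxa-c against HCT116, in 8.58% for HCT-FU-c against HCT116 and in 23.9% for HCT-Oxa-c against HCT-FU-c. In the comparisons of HCT-Oxa-c with HCT116 and with HCT-FU-c, 14.2% and 18.1% of the other 67160 pairs did not overlap and differed at least as much as the hsa-miR-10a-5p to hsa-miR-10b-5p ratio. A lower ratio of the miR-10 paralogs in HCT-Oxa-c was thus 1 of many such differences.

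The other ratios overlapped between the lines. The ratio of the 5p to the 3p strand of miR-10a was 194, 145 and 617 for HCT116, 178, 141 and 413 for HCT-Oxa-c and 231, 80.2 and 575 for HCT-FU-c. It was highest in replicate 3 of each line, where the 5p strand shifted more than the 3p strand. For miR-10b this ratio ranged from 154 to 1200 where the 3p strand had any count, and it rested on 20 or fewer counts of hsa-miR-10b-3p. The ratio of hsa-miR-196a-5p to hsa-miR-196b-5p ranged from 0.228 to 0.389 for HCT116, from 0.164 to 0.312 for HCT-Oxa-c and from 0.243 to 0.376 for HCT-FU-c. The exact permutation p of these ratios was 0.3 or higher in all 3 comparisons (two-sided, 3 against 3 libraries, adjusted p = 0.982 to 1). Within replicate numbers 1, 2 and 3, the log2 ratio of the strands of miR-10a was lower in HCT-Oxa-c than in HCT116 in 3 of 3 pairs (-0.13, -0.038 and -0.57). That of hsa-miR-196a-5p to hsa-miR-196b-5p was lower in 3 of 3 pairs of HCT-Oxa-c with HCT-FU-c (-0.094, -0.39 and -0.57). The exact sign-flip p of both was 0.25, the smallest that 3 pairs allow, and in the other comparisons of these ratios the pairs differed in direction. Numbers 1 and 2 are not shown to pair libraries. For the strands of miR-10a, HCT-Oxa-c replicate 1 (log2 ratio 7.46) lay above HCT116 replicate 2 (7.17), so 3 of 3 depended on the numbering.

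**Figure D5:**
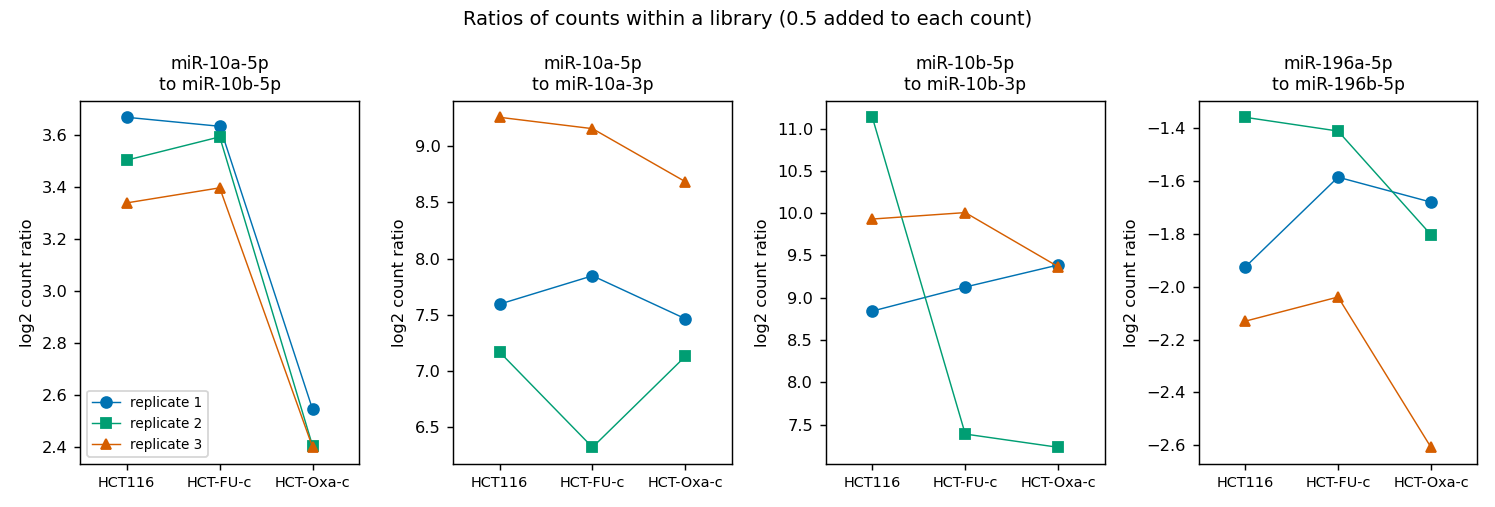
Log2 ratios of counts within a library (0.5 added to each count) for 4 pairs of members, with the lines on the horizontal axis and colors and shapes for the replicate number. For hsa-miR-10a-5p to hsa-miR-10b-5p all HCT-Oxa-c libraries (2.40 to 2.55) lie below all others (3.34 to 3.67), and for the other 3 pairs the lines overlap.

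The relatives of miR-10 outside the HOX clusters were measured beside it, since hsa-miR-99a-5p, hsa-miR-99b-5p and hsa-miR-100-5p share with each other a seed close to that of hsa-miR-10a-5p. hsa-miR-100-5p was more abundant than any member, at 41184, 38810 and 53625 CPM for HCT116, 59494, 59622 and 86310 CPM for HCT-Oxa-c and 38243, 21579 and 47303 CPM for HCT-FU-c. Its HCT-Oxa-c libraries lay above all libraries of the other lines. Ranges did not overlap for 16.1% of all 367 miRNAs against HCT116 and for 22.9% against HCT-FU-c. It was not called without the block (log2 fold change 0.62 against HCT116, edgeR adjusted p = 0.521) and was called with it (0.61, edgeR adjusted p = 0.0187). Against HCT-FU-c the values were 0.94 without the block (edgeR adjusted p = 0.139) and 0.98 with it (edgeR adjusted p = 0.000185). Over all 367 miRNAs the block called 14.7% against HCT116 and 26.4% against HCT-FU-c, so such calls were common. hsa-miR-99b-5p had means of 2377 to 2711 CPM and hsa-miR-99a-5p of 6.89 to 12.4 CPM over the lines, and neither was called in any of the 3 comparisons, with or without the block. hsa-miR-100-5p and hsa-miR-10b-5p were thus both higher in HCT-Oxa-c with the block, whereas hsa-miR-10a-5p, which shares the run of 11 bases printed above with hsa-miR-100-5p, was not.

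The miRNAs with the most similar pattern were found by the root mean square difference of log2 CPM over the 9 libraries, after each miRNA was centered on its own mean, among 361 other tested miRNAs. For hsa-miR-10a-5p they were hsa-miR-625-3p (0.32) and hsa-miR-301a-3p (0.37). For hsa-miR-10b-5p they were hsa-miR-182-5p (0.35) and hsa-miR-30e-3p (0.39). These distances compare with medians over all 361 miRNAs of 1.26 and 1.35 for these members. hsa-miR-196a-5p was closest to hsa-miR-98-5p (0.17) and hsa-let-7a-5p (0.19). hsa-miR-196b-5p was closest to hsa-miR-151a-3p (0.18) and hsa-let-7f-5p (0.21). The closest to hsa-miR-10a-3p were hsa-miR-4659a-3p (0.22) and hsa-miR-423-5p (0.26), and to hsa-miR-615-3p hsa-miR-182-3p (0.20) and hsa-miR-4326 (0.24). Between members the distance was 0.37 for the miR-196 paralogs and 0.52 for hsa-miR-10a-5p and hsa-miR-10b-5p. Each of these had nearer neighbors outside the HOX clusters, but there the smallest of 361 distances is set against that to 1 paralog. Both paralog distances were below the medians over the 361 miRNAs, which were 0.72 for hsa-miR-196a-5p and 0.92 for hsa-miR-196b-5p. These distances describe 9 libraries in which replicate 3 holds most of the spread.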

How the data were processed

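Small RNA libraries (NEXTflex kit, MiSeq) from total RNA of HCT116, HCT-FU-c and HCT-Oxa-c, 3 biological replicates each, were analysed from the read counts of each mature miRNA, which the authors deposited unnormalized. Per the submitters' processing notes, CASAVA 1.8, Bowtie 1.1.2, GRCh38.p7 and DESeq2 were used. The authors also deposited normalized signal columns, in which the counts of each library are divided by 1 factor. These entered no test here.

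Counts were tested with edgeR 4.0.16 in R 4.3.3 (TMM scaling, filterByExpr at min.count 10 and min.total.count 15, quasi-likelihood F test on all 9 libraries with the line as factor, Benjamini-Hochberg adjustment over 367 miRNAs, adjusted p below 0.05). The tested miRNAs held 99.9% of the counts of each library. The fit was tested on simulated data. Libraries of 1 line differed beyond counting error (chi-square per degree of freedom 11.6 to 461), so none was counted as a repeat of another. Count ratios were compared on the log2 scale by exact permutation tests. Counting limits cover counting error only, since PCR reads without molecular identifiers are not independent molecules.

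The lines share replicate numbers 1 to 3 in the labels. Deviations from the line means correlated by 0.40 to 0.75 between libraries with the same number and by -0.68 to 0.61 between libraries with different numbers. Every pair with the same number was above 0.1, the limit for using the replicate number as a block in an alternative fit. Among replicates 1 and 2 the correlations were 0.40 to 0.64 with the same number and 0.41 to 0.61 with different numbers, and the difference of replicate 1 minus replicate 2 correlated between lines by -0.095 to 0.19. The values thus set replicate 3 apart and do not show that numbers 1 and 2 pair libraries. The block lowered the biological coefficient of variation from 0.458 to 0.174.

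Named miRNAs were the members, the other listed strands of their hairpins, other listed miRNAs inside a HOX cluster, the relatives hsa-miR-99a-5p, hsa-miR-99b-5p and hsa-miR-100-5p, and for each tested member the 2 miRNAs with the most similar pattern. The members and lists were chosen with earlier results of these data known. Alternatives were other scalings, filters, DESeq2 1.42.0, only the libraries compared, replicates 1 and 2 only, each library left out in turn and the block. Other scalings, DESeq2, left-out libraries and a block of replicate 3 only, all in place of or within the fit with the block, were chosen after seeing the data.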

Additional observations from a re-analysis of the deposited data

Results flagged for a closer look

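The change of hsa-miR-10b-5p from HCT116 differed between the sublines by the test of that difference with the replicate block. The change in HCT-Oxa-c minus the change in HCT-FU-c was 0.59 on the log2 scale (edgeR adjusted p = 0.0422), and it was positive in 2 of 3 replicate numbers. Without the block the same difference was 0.71 (edgeR adjusted p = 0.825). This difference is the same quantity as the direct comparison of the sublines, and with the block it was lost without HCT-FU-c replicate 2 (0.26, edgeR adjusted p = 0.360) and without 5 other libraries. It was also lost where the block set only replicate 3 apart (0.52, edgeR adjusted p = 0.109). The cause was not tested.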

How the results depend on the processing

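Unless a comparison is named, values stand first for HCT-Oxa-c and then for HCT-FU-c, each against HCT116, and last for HCT-Oxa-c against HCT-FU-c. Against the fit with the line only, of 396 recomputed fold changes of the members 338 kept their direction and side of the threshold, 11 passed it only in the alternative and 47 changed sign, none of which was called in either direction. Of 30 refits of hsa-miR-10b-5p with a block, in both comparisons of HCT-Oxa-c, 14 did not pass and 0 changed sign. Without the block edgeR called 0 members under every alternative in all 3 comparisons. With TMM and all 9 libraries, the block changed no member's call other than that of hsa-miR-10b-5p. With other scalings or fewer libraries it also changed calls of hsa-miR-10a-5p, hsa-miR-10a-3p and hsa-miR-196b-5p, as given below. Where values changed, the cause was not tested, except that fewer libraries or miRNAs entered some fits. Depth limited hsa-miR-196b-3p and hsa-miR-615-5p, which had at most 3 counts in a library, and hsa-miR-10b-3p, which had more than 6 only in replicates 2 and 3 of HCT-Oxa-c.

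Against 9, 0 and 16 miRNAs called in all, DESeq2 called 23, 4 and 43. A filter of at least 10 counts in every library gave 4, 1 and 9, and no filter gave 16 and 1 in the comparisons with HCT116. Replicates 1 and 2 alone gave 43, 13 and 67. The replicate block called 54, 20 and 97. It called 1 member, hsa-miR-10b-5p, in both comparisons of HCT-Oxa-c.

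In the fit with the block, chosen after seeing the data, DESeq2 gave 51, 18 and 85 calls and RLE size factors 51, 18 and 85. TMM without the most abundant miRNA gave 55, 16 and 84, and total counts 49, 10 and 103. In both comparisons of HCT-Oxa-c 1 member was called under each of these, except for 2 members (hsa-miR-10b-5p and hsa-miR-196b-5p) against HCT116 with TMM without the most abundant miRNA. With total counts the member called against HCT-FU-c was hsa-miR-10a-5p in place of hsa-miR-10b-5p. The adjusted p of hsa-miR-10b-5p in edgeR or DESeq2 with the block was 0.0131 to 0.0211 against HCT116 over these scalings and tools, and 0.0256 to 0.117 against HCT-FU-c. With replicate 3 against the others as the only block, also chosen after seeing the data, 54, 15 and 92 miRNAs were called, with 1, 0 and 0 members.

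Some small fold changes changed sign under other settings. For hsa-miR-10a-3p in HCT-Oxa-c against HCT116 (0.02 without it) the block alone gave -0.052, and the block with DESeq2 gave -0.025, with RLE -0.029, with total counts -0.048 and with TMM without the most abundant miRNA -0.0024. For hsa-miR-196a-5p in HCT-Oxa-c against HCT-FU-c (-0.07) the block alone kept the sign (-0.044), and it gave 0.025 with DESeq2, 0.026 with RLE and 0.034 with TMM without the most abundant miRNA. For hsa-miR-615-3p in HCT-FU-c against HCT116 (-0.14) the block alone kept the sign (-0.17), and total counts gave 0.0051 with the block and 0.081 without it. Total counts without the block also turned hsa-miR-615-3p to -0.034 in HCT-Oxa-c against HCT-FU-c.

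Replicates 1 and 2 alone turned hsa-miR-10a-3p to -0.27 in HCT-Oxa-c against HCT116. In HCT-Oxa-c against HCT-FU-c they turned hsa-miR-196a-5p to 0.088, the log2 ratio of the strands of miR-10a to 0.21 and that of miR-10b to 0.052. With these replicates and the block, hsa-miR-10b-5p was not called in HCT-Oxa-c against HCT-FU-c (0.51, edgeR adjusted p = 0.149), and hsa-miR-10a-3p was called.

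Leaving out each library in turn without the block gave 4 to 12 calls in HCT-Oxa-c against HCT116 and 6 to 23 in HCT-Oxa-c against HCT-FU-c. With the block it gave 25 to 64, 3 to 27 and 48 to 103 calls, and 0 to 2 members called in each comparison of HCT-Oxa-c. The added members were hsa-miR-196b-5p without HCT-FU-c replicate 1 or 3, and hsa-miR-10a-5p without HCT-FU-c replicate 2.

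The log2 fold changes without the block had the following ranges when each library was left out, with replicate 3 of a line giving most ends. In HCT-Oxa-c against HCT116 they were -1.52 to 0.93 for hsa-miR-10a-5p, -0.37 to 0.29 for hsa-miR-10a-3p, -0.59 to 2.10 for hsa-miR-10b-5p, -0.19 to 0.52 for hsa-miR-196a-5p, -0.26 to 1.099 for hsa-miR-196b-5p and -0.25 to 0.37 for hsa-miR-615-3p. In HCT-FU-c against HCT116 they were -0.81 to 1.31 for hsa-miR-10a-5p, 0.24 to 0.52 for hsa-miR-10a-3p, -1.02 to 1.42 for hsa-miR-10b-5p, -0.20 to 0.62 for hsa-miR-196a-5p, -0.59 to 0.80 for hsa-miR-196b-5p and -0.53 to 0.17 for hsa-miR-615-3p. In HCT-Oxa-c against HCT-FU-c they were -1.64 to 0.60 for hsa-miR-10a-5p, -0.75 to -0.062 for hsa-miR-10a-3p, -0.64 to 1.81 for hsa-miR-10b-5p, -0.28 to 0.35 for hsa-miR-196a-5p, -0.30 to 1.00 for hsa-miR-196b-5p and -0.029 to 0.58 for hsa-miR-615-3p.

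The same was done for the log2 ratios. In HCT-Oxa-c against HCT116 the ratio of the strands of miR-10a ranged from -0.71 to 0.38 and that of hsa-miR-196a-5p to hsa-miR-196b-5p from -0.40 to 0.063. In HCT-FU-c against HCT116 the ratio of the strands of miR-10a ranged from -0.92 to 0.49, that of hsa-miR-10a-5p to hsa-miR-10b-5p from -0.045 to 0.12 and that of the miR-196 paralogs from -0.036 to 0.35. In HCT-Oxa-c against HCT-FU-c the strands of miR-10a ranged from -0.74 to 0.68 and those of miR-10b from -0.90 to 0.54.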
